A study of Mus musculus with 8 samples.

Results

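The subunits of oxidative phosphorylation were followed across kidney, lung, liver and small intestine of male C57BL/6 mice (C57BL/6J in the study's methods) at an age of 6 to 10 weeks. The rows were taken by gene symbol alone: mitochondrial genes of the families mt-Nd, mt-Co, mt-Atp and mt-Cytb, and nuclear genes whose symbols begin with Nduf and a subunit letter, Sdha to Sdhd, Uqcr, Cox4 to Cox8, or Atp5. This gave 103 of the 52195 rows, namely 83 nuclear genes, 13 mitochondrial genes and 7 processed pseudogenes of nuclear subunits. Copies of mitochondrial genes on chromosome 1 carry other symbols and were left out. Polyadenylated RNA was sequenced from 2 libraries per tissue, 8 in all, and the authors deposited FPKM, fragment counts scaled to transcript length and library size. The 2 libraries of a tissue came from separate mice, all of 1 strain and sex, and no treatment or engineered allele is named in the labels. All tissues were taken from each mouse, but the link between a replicate number and a mouse is not stated.

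The respiratory chain sits in the inner mitochondrial membrane. Complex I (NADH dehydrogenase) and complex II (succinate dehydrogenase) pass electrons to ubiquinone, complex III (the cytochrome bc1 complex) passes them on to cytochrome c, and complex IV (cytochrome c oxidase) reduces oxygen. Complexes I, III and IV pump protons, and complex V (ATP synthase) uses the gradient to make ATP. Most subunits are encoded in the nucleus and imported, while the core subunits that span the membrane in complexes I, III, IV and V are encoded on the mitochondrial chromosome, where nearly all genes are transcribed together. Several subunits of complex IV occur as isoforms with a tissue pattern, among them forms known from heart and skeletal muscle, from lung and from testis.

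By complex, the nuclear rows were 35 of complex I, 4 of complex II, 8 of complex III, 20 of complex IV and 16 of complex V. The mitochondrial rows were 7 of complex I, 1 of complex III, 3 of complex IV and 2 of complex V. Ndufa4 and its paralog Ndufa4l2, named after complex I, were placed with complex IV, of which the NDUFA4 protein is now held to be a part. The symbol rule also took Cox7a2l, a factor that joins complexes III and IV, and Atp5s, which is not a structural subunit of ATP synthase. For 102 of the 103 symbols the GENCODE M21 annotation (build GRCm38, the build of the authors) holds a single gene. Atp5o is shared by more than 1 gene, so no position is given for it.

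Depth was between 9164187 and 21444675 reads counted on genes per library. At that depth 3 reads in 1 kb of exons correspond to an FPKM between 0.140 and 0.327, so that lower values cannot be told from 0. This limit covers counting error only. The labels of the tissues were borne out by their markers: all 5 proximal tubule markers were called higher in kidney, all 3 alveolar type 2 markers in lung, all 5 hepatocyte markers in liver and all 5 enterocyte markers in small intestine. Erythroid markers summed to 19200 and 24890 FPKM in lung and at most 2409 elsewhere. Every value is for a whole organ, in which fewer cells of a type and less RNA per cell cannot be told apart.

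First, the summed values of the 2 genomes were compared. The 13 mitochondrial members held 33.9% and 35.8% of the summed FPKM in the kidney libraries, 23.2% and 24.6% in small intestine, 22.5% and 21.1% in liver, and 13.1% and 11.6% in lung. Kidney was therefore the highest tissue and lung the lowest, with no overlap with any other tissue, while liver and small intestine lay close together. The summed FPKM also holds the copies on chromosome 1 described below, without which each of these shares would be larger. Because the few mitochondrial transcripts take up so much of a library, the nuclear members are better given as a share of the remaining FPKM, with all mitochondrial rows and their copies left out. On this scale the 83 nuclear members held 4.17% and 4.59% in kidney, 3.25% and 2.65% in small intestine, 1.44% and 1.42% in liver, and 1.10% and 1.18% in lung. The order was kidney, small intestine, liver and lung, and no neighbouring tissues overlapped.

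The ratio of mitochondrial to nuclear FPKM, taken within a library and so independent of scaling between libraries, followed another order. It was 27.7 and 25.0 in liver, 22.1 and 24.7 in kidney, 13.96 and 18.0 in small intestine, and 15.9 and 12.8 in lung. Liver and kidney lay above small intestine and lung, but the difference between liver (26.3 ± 1.88, SD, n = 2) and kidney (23.4 ± 1.85, SD, n = 2) and that between small intestine (16.0 ± 2.88, SD, n = 2) and lung (14.3 ± 2.19, SD, n = 2) were of the size of the spread between replicates. The ratio also differed by complex. In complex IV it was 61.2 and 54.7 in liver against 42.4 and 47.0 in kidney, 27.1 and 37.3 in small intestine and 26.6 and 21.1 in lung. In complex I liver and kidney overlapped, at 22.4 and 20.2 against 21.6 and 21.03, while small intestine was at 10.5 and 14.6 and lung at 13.01 and 9.74. With medians over genes in place of sums this order did not hold for complex I: the ratio over the mean of the other tissues was then 1.05 for lung and 0.916 for liver. In complex III it was 15.7 and 16.5 in kidney, 14.2 and 12.3 in liver, 11.3 and 9.66 in lung, and 7.99 and 10.0 in small intestine, and in complex V it was 16.3 and 14.2 in liver, 11.1 and 13.4 in kidney, 10.1 and 8.79 in lung, and 8.15 and 9.24 in small intestine. As these are sums over chosen rows, no p is given.

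**Figure D1:**
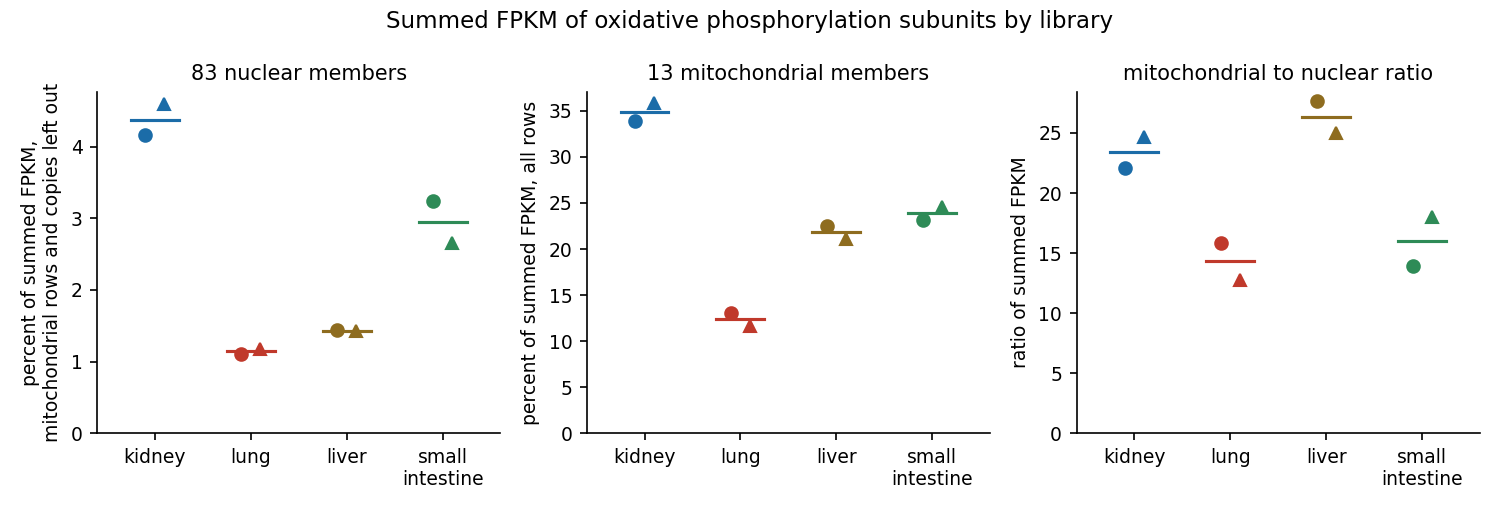
Share of the 83 nuclear members in the FPKM that remains without mitochondrial rows and copies (left, percent), share of the 13 mitochondrial members in all FPKM (middle, percent), and the ratio of the summed FPKM of the mitochondrial to the nuclear members (right), for each library (circle, replicate 1; triangle, replicate 2) with the tissue mean as a line. Kidney is highest in the first and second plots, at a mean of 4.38% and 34.9%, while liver has the highest mean ratio, 26.3.

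Some mitochondrial values count reads that cannot be placed. Chromosome 1 carries an unbroken row of 7 annotated pseudogenes that are near-identical copies of mt-Co1, mt-Co2, mt-Atp6, mt-Co3, mt-Nd3, mt-Nd4l and mt-Nd4. The copies of mt-Co2, mt-Co3, mt-Atp6 and mt-Nd4l had no different base over the aligned length, and the copy of mt-Nd3, Gm28438, had 1 in 345, a substitution of T3C with positions counted from the first base of mt-Nd3. The sequences below, from the GENCODE M21 transcripts, show this only difference in capitals. They are chrM:9459-9485 on the plus strand and chr1:24613093-24613119 on the minus strand of GRCm38.
mt-Nd3: atTaacctgtacactgttatcttcatt
Gm28438: atCaacctgtacactgttatcttcatt
The copy Gm28661 stood at 1.01 to 1.02 times the FPKM of mt-Co2 in every library, and Gm28438 at 0.987 to 1.003 times that of mt-Nd3, and Gm28437 and Gm10222 were likewise within 1.01 to 1.09 times mt-Co3 and mt-Nd4l. The other copies were not equal to their partners. In kidney Gm10925 was at 41582 and 52851 FPKM against 30761 and 38482 for mt-Atp6, Gm29216 at 76854 and 98050 against 53815 and 63447 for mt-Co1, and Gm28439 at 6783 and 7193 against 14151 and 15274 for mt-Nd4. How reads with several places were counted is not stated, so values of these members and their copies cannot be told apart. Together the copies held between 11.1% (lung) and 32.4% (kidney) of the summed FPKM. Only mt-Nd1, mt-Nd2, mt-Nd5, mt-Nd6, mt-Cytb and mt-Atp8 shared under 10% of their stretches of 31 bases with these copies. With these members alone the ratio to the nuclear members was 5.93 and 6.11 in kidney, 6.01 and 5.48 in liver, 4.05 and 3.20 in lung, and 2.73 and 3.66 in small intestine, so that kidney and liver overlapped. Of these members, mt-Nd5 and mt-Nd2 still shared 16.8% and 13.5% of such stretches with genes other than the copies.

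Next, the tissue mean of each member was tested against the average of the other 3 tissues on the log2(FPKM + 1) scale with limma, in 1 fit over the 16328 genes that reached an FPKM of 1 in 2 or more libraries. Calls required an absolute log2 difference above 1 and a p below 0.05 after Benjamini-Hochberg adjustment. Of the members, 81 nuclear and 13 mitochondrial genes and 6 pseudogenes passed the filter. Without the 2 lung libraries Cox4i2, Cox6a2 and Cox8b would not have passed, nor the pseudogene Atp5k-ps2 without those of small intestine, so the differences of these members are given as descriptions, with no test. Without these 3 nuclear members, the counts of called nuclear members given next are 2 in place of 5 higher in lung, 0 in place of 2 lower in kidney, 7 in place of 10 lower in liver and 1 in place of 3 lower in small intestine. The values as deposited are not centred: over all genes the log2 differences had a median of 0.82 in lung, -0.34 in kidney, -0.01 in small intestine and -0.72 in liver. Counts are therefore also given after scaling by median-of-ratios size factors, which brought these medians to -0.02, -0.11, -0.05 and -0.14.

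In kidney, 17 of the 81 nuclear members were called higher and 2 lower, where 8.65% of all genes tested were called higher and 16.1% lower. The median log2 difference of the nuclear members was 0.67. Of the 13 mitochondrial members, 11 were called higher and none lower, with a median of 1.11. Scaled by median of ratios, 39 nuclear members were called higher and 1 lower, against 11.5% and 12.1% of all genes, and 9 mitochondrial members were called higher. Both kidney libraries lay above the other 6 for 25 nuclear and 10 mitochondrial members, as they did for 8.6% of all genes.

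The nuclear member with the highest log2 difference in kidney was Atp5b, 1 of 2 called of 16 tested in complex V. Atp5b, the catalytic beta subunit (chr10:128083273-128090391), was at 741 and 667 FPKM in kidney, 511 and 466 in small intestine, 251 and 227 in liver and 138 and 139 in lung. The kidney libraries were above all others and the tissues did not overlap. Its log2 difference in kidney was 1.47 (SE 0.11, limma adjusted p = 3.16e-05). Atp5a1, the alpha subunit and the other of the 2, was at 600 and 554 FPKM in kidney against 137 to 452 elsewhere, a log2 difference of 1.27. In complex I the iron-sulfur subunit Ndufs1 was at 29.6 and 23.5 FPKM in kidney and between 6.75 and 13.4 in the other libraries, a log2 difference of 1.34. Ndufv1, which binds NADH, was at 110 and 108 FPKM in kidney and 37.3 to 84.3 elsewhere, a log2 difference of 1.08. The other complex I members called higher were Ndufb6 (1.28), Ndufb8 (1.21), Ndufb4 (1.11), Ndufa12 (1.08), Ndufa10 (1.05) and Ndufa9 (1.002), given as log2 differences. Ndufb6 shared 34.4% of its stretches of 31 bases with its neighbour Smim27, so its values are uncertain. In complex II the flavoprotein Sdha was at 194 and 138 FPKM in kidney against 44.6 to 104 elsewhere, and Sdhc, a membrane anchor, at 93.7 and 104 against 26.5 to 79.5. Both were called higher, by 1.07 and 1.12 on the log2 scale. In complex IV Ndufa4 was at 357 FPKM in both kidney libraries and 92.4 to 214 elsewhere, a log2 difference of 1.33, and Cox8a (1.03) and Cox6a1 (1.01) were also called higher, as were Uqcrfs1 (1.19) and Uqcr10 (1.13) of complex III. The 2 members called lower in kidney, Cox4i2 and Cox8b, were near 0 in most tissues and high in lung.

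In lung, 26 of the 81 nuclear members were called lower and 5 higher, where 8.26% of all genes tested were called lower and 40.7% higher. The median log2 difference of the nuclear members was -0.67, against 0.82 for all genes. Of the mitochondrial members 11 were called lower and none higher. Scaled by median of ratios, 70 nuclear members were called lower and the count called higher stayed at 5, against 16.0% and 14.6% of all genes, the nuclear median was -1.82 and all 13 mitochondrial members were called lower. The 5 members called higher in lung were the complex IV isoforms Cox4i2, Cox6a2 and Cox8b, which passed the filter through lung, and Cox6b2 and Ndufa4l2. The 26 called lower were 5 of 35 tested members of complex I, 4 of 4 of complex II, 4 of 8 of complex III, 5 of 18 of complex IV and 8 of 16 of complex V.

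The lowest lung values relative to the other tissues came from complexes III, V and II. Uqcrfs1, the Rieske iron-sulfur protein of complex III (chr13:30540308-30545362), was at 57.6 and 59.7 FPKM in lung, 272 and 302 in kidney, 253 and 209 in small intestine and 146 and 140 in liver. The lung libraries were far below all others, and the log2 difference was -1.83 (SE 0.12, limma adjusted p = 5.73e-06). Atp5g3, which encodes subunit c of the ATP synthase rotor, was at 82.9 and 88.5 FPKM in lung against 161 to 478 elsewhere, a log2 difference of -1.76 (SE 0.15, limma adjusted p = 2.20e-05). Sdhd, a membrane anchor of complex II, was at 70.5 and 72.2 FPKM in lung, 238 and 260 in kidney, 353 and 297 in small intestine, and 148 and 153 in liver. Its log2 difference in lung was -1.67 (SE 0.11, limma adjusted p = 7.23e-06). The other subunits of complex II had log2 differences of -1.42 (Sdhb), -1.39 (Sdha) and -1.21 (Sdhc), and the complex III core proteins Uqcrc2 and Uqcrc1 had log2 differences of -1.50 and -1.44. Atp5b and Atp5a1 were at -1.64 and -1.44 in lung, and the nuclear-encoded accessory subunits of complex IV, Cox5a and Cox5b, at -1.40 and -1.11.

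In liver, 10 of the 81 nuclear members were called lower and none higher, where 32.7% of all genes tested were called lower and 6.56% higher. The share of members called lower was thus below that of all genes, and their median log2 difference of -0.62 was close to that of all genes, -0.72. Under median-of-ratios scaling the nuclear median was 0.36, against -0.14 for all genes, so its sign changed while it lay above that of all genes on both scales. Calls were then spread over both directions, with 4 members called higher and 4 lower, against 12.3% and 13.9% of all genes, and the calls among mitochondrial members went from 1 lower to 4 higher. The 4 nuclear members then called higher were the complex III subunits Uqcrq (1.47), Uqcr11 (1.08) and Uqcrb (1.01) and the complex II flavoprotein Sdha (1.17), and the 4 mitochondrial ones were mt-Nd4l (1.74), mt-Nd2 (1.5004), mt-Nd4 (1.30) and mt-Nd3 (1.03), given as scaled log2 differences. The called member of lowest value, Cox7a1, is an isoform that is high in another tissue and is described with the isoforms.

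In small intestine, 15 of the 81 nuclear members were called higher and 3 lower, where 13.7% of all genes tested were called higher and 11.3% lower. The median log2 difference was 0.57, and no mitochondrial member was called by limma in either direction, though 4 were higher and 1 lower by adjusted p alone. After median-of-ratios scaling 11 were called higher and 3 lower, against 13% and 11.6% of all genes. The share of members called higher was thus 18.5% as deposited and 13.6% after scaling, the latter near that of all genes, and the share called lower was 3.70% on both scales. The count called higher as deposited also depended on which library was left out, as given below. Complex V had the most members called higher, 6 of 16, and complex I the fewest for its size, 1 of 35. Atp5o, the subunit that links the ATP synthase head to its stalk, was at 156 and 113 FPKM in small intestine, 75.4 and 76.1 in kidney, 29.6 and 32.4 in lung and 33.3 and 31.5 in liver. The small intestine libraries were above the other 6, with a log2 difference of 1.62 (SE 0.14, limma adjusted p = 5.23e-05). As a symbol of more than 1 gene, with 49.3% of its stretches of 31 bases shared with other genes, Atp5o is an uncertain value. Cox7b, a small subunit of complex IV, was at 259 and 219 FPKM against 48.3 to 162 elsewhere, a log2 difference of 1.36 (SE 0.15, limma adjusted p = 0.000211). Uqcrc1 was higher by 1.29, Atp5g3 by 1.29, Atp5g1 by 1.25, Sdhd by 1.22 and Atp5c1, the gamma subunit of complex V, by 1.14 on the log2 scale.

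**Figure D2:**
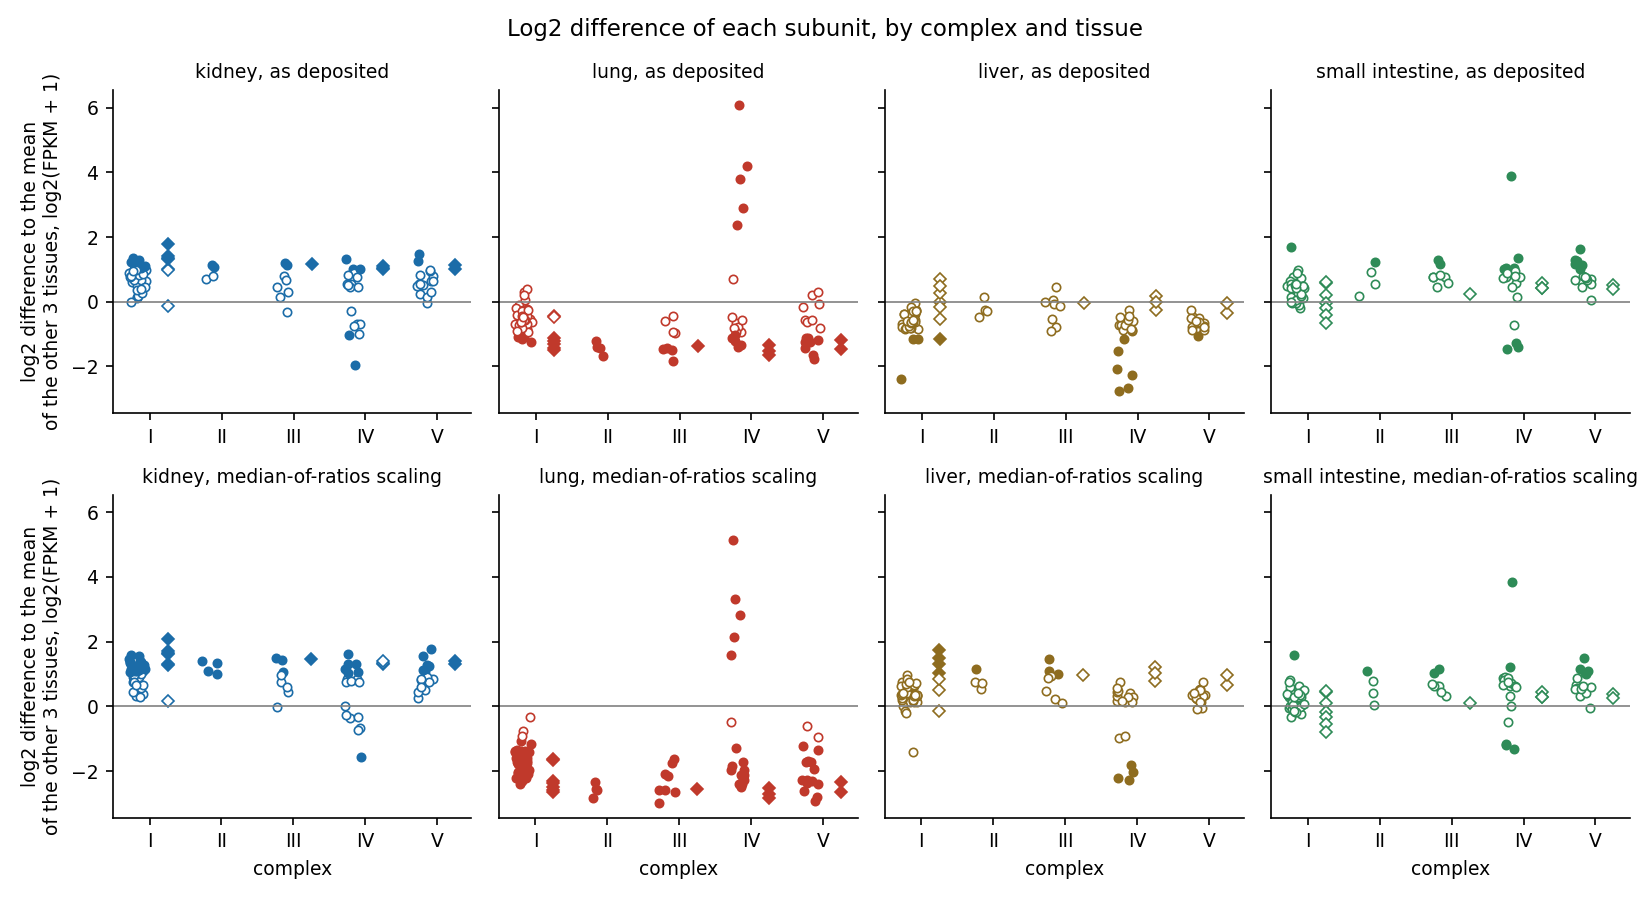
Log2 difference of each tested nuclear (circle) and mitochondrial (diamond) member to the mean of the other 3 tissues, on the log2(FPKM + 1) scale (vertical axis), by complex (horizontal axis) and tissue, as deposited (top) and after median-of-ratios scaling (bottom). Filled symbols were called. The 5 filled circles high in the lung plots are complex IV isoforms, and the liver values, with a nuclear median of -0.62 as deposited, have a median of 0.36 after scaling.

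Ranked by the mean of its 2 libraries, a nuclear member was highest in kidney for 40 of 81, in small intestine for 33, in lung for 8 and in liver for none. The lowest tissue was lung for 43 and liver for 38. After median-of-ratios scaling kidney was highest for 56, small intestine for 15, and lung and liver for 5 each, and lung was lowest for 74.

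Levels were then set relative to the median nuclear member of the same library, which takes out scaling between libraries for members well above an FPKM of 1. For low members such as Cox8b the added 1 keeps it in, so their places on this scale are not read. On this scale the complexes did not move together. In lung, complex II had a median difference to the other tissues of -0.78 on the log2 scale, with 0 of 4 members above 0, and complex III one of -0.58, with 2 of 8 above 0. Complex I was at 0.07 in lung, with 22 of 35 members above 0. In liver complex III was at 0.53 with 6 of 8 members above 0 and complex II at 0.36 with 4 of 4 above 0, against a mean that holds the low lung values, and all 4 complex II members overlapped other libraries. Complex IV was at -0.22 in liver, with 5 of 18 above 0, and at -0.10 in lung. Its 18 members include low isoforms such as Cox4i2, Cox6a2 and Cox8b, so the medians of complex IV are not read. In small intestine complex V was at 0.21 with 14 of 16 members above 0 and complex I at -0.11 with 10 of 35. In kidney no complex was beyond 0.24 in either direction.

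Of the complex III members, Uqcrq, Uqcr11 and Uqcrb had both liver libraries outside the other 6. Uqcrq, which belongs to the ubiquinone-binding part, was at 83.1 and 100 FPKM in liver, 67.2 and 88.9 in kidney, 33.5 and 32.7 in lung, and 123 and 98.6 in small intestine. In liver it stood 1.10 (log2) above its mean in the other tissues relative to the median member. Uqcr11 was at 0.70 and Uqcrb at 0.64 by the same measure, though 34.8% of the 31-base stretches of Uqcrb were shared with other genes. The core proteins Uqcrc2 (0.56) and Uqcrc1 (0.11) and the Rieske protein Uqcrfs1 (0.50) overlapped other libraries, as did the small subunits Uqcr10 (-0.13) and Uqcrh (-0.26). In kidney Atp5b (0.74), Ndufb6 (0.55) and Atp5a1 (0.54) were the highest of those outside the other libraries. Both liver libraries lay above the other 6 for 7 of 81 members on this scale, where 8.9% of all genes did.

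**Figure D3:**
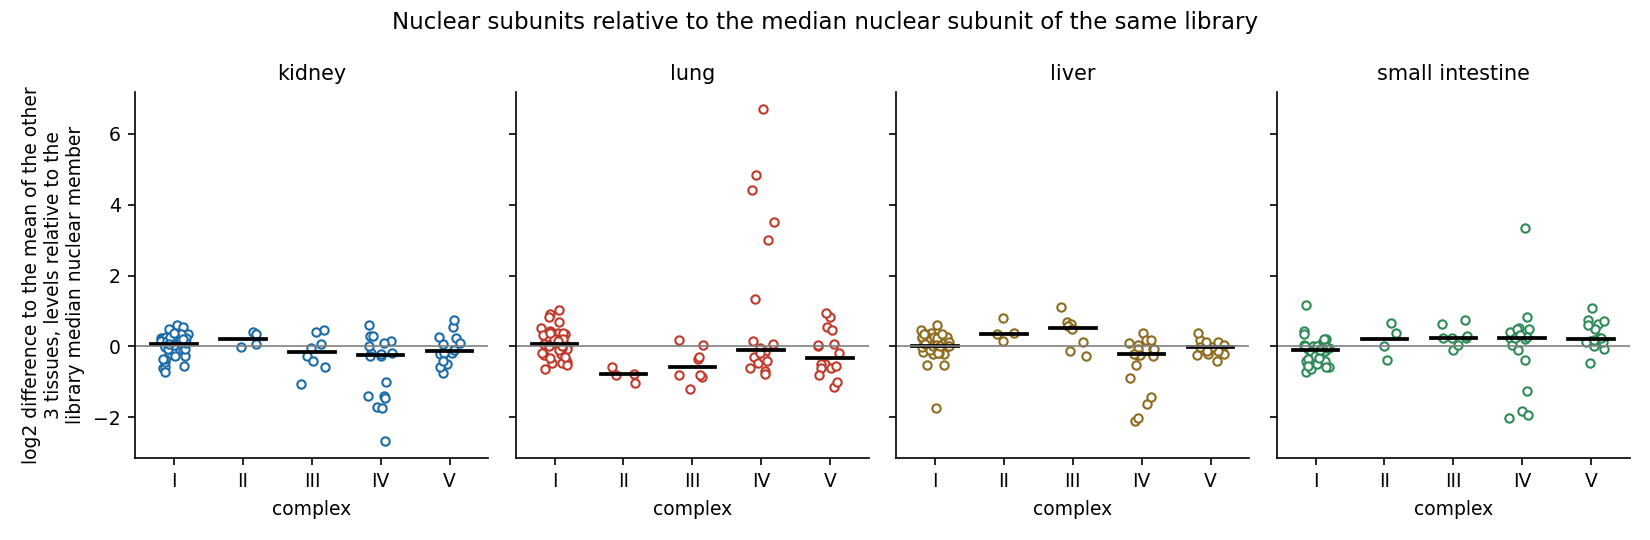
Difference of each of the 81 tested nuclear members to its mean in the other 3 tissues, with levels taken relative to the median nuclear member of the same library on the log2(FPKM + 1) scale (vertical axis), by complex (horizontal axis). Points are members and black lines the median of a complex, which in lung is -0.78 for complex II and in liver 0.53 for complex III.

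The upstream sequence of the nuclear members was examined for short cores of factors known to act on these genes. RefSeq promoter windows (GRCm38.p6, 250 bases before to 50 after a start) were matched for 68 of the 83 nuclear members. Those without an entry included Atp5a1, Cox4i1, Cox4i2, Cox6a2, Cox6c, Cox8c, Ndufa2, Ndufa4l2, Ndufb9, Ndufs1, Sdhc, Uqcrb, Uqcrc2 and Uqcrq. The core of nuclear respiratory factor 1 (NRF1), GCGCANGCG on either strand, was found for 20 of 68 members (29.4%), against 7.03% of all 27025 genes. The core AAGATGGCG of YY1 was found for 7 (10.3%, against 1.64%), CCGGAAGT of the ETS factor GABPA for 5 (7.35%, against 4.31%), and TCAAGGTCA of the estrogen-related receptors for 2 (2.94%, against 0.466%). Those 2 were Atp5g3 and Sdhd, and each also held the NRF1 core. Both were among the 3 named members lowest in lung, but Uqcrfs1, the lowest of them, held none of the 4 cores. The estrogen-related receptor core of Sdhd lay 36 bases after the start. A match is a description of the letters in these windows, and an absent one says nothing about the factor. Windows of 120 bases that end before the first annotated base of the gene are printed 5′ to 3′ for members on which the results turn, with any of these cores in capitals. The first are 3 members named above: Atp5g3 (chr2:73911327-73911446 on the minus strand), Uqcr11 (chr10:80406831-80406950 on the minus strand) and Atp5b (chr10:128083153-128083272 on the plus strand).
Atp5g3: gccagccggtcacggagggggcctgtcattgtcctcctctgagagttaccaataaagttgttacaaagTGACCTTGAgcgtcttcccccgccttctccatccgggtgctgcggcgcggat
Uqcr11: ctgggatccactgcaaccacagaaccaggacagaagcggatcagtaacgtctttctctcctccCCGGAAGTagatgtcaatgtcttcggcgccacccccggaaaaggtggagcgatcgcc
Atp5b: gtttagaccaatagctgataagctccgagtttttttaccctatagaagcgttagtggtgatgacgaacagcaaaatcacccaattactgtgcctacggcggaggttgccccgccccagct
In the window of Atp5g3 the capitals mark the estrogen-related receptor core on the opposite strand, in that of Uqcr11 the ETS core, and that of Atp5b holds none of the 4. Pairs of isoforms follow, Cox7a1 (chr7:30184024-30184143 on the plus strand) with Cox7a2 (chr9:79759879-79759998 on the minus strand), and Cox8a (chr19:7217617-7217736 on the minus strand) with Cox8b (chr7:140900447-140900566 on the minus strand), and then the common form Cox6a1 (chr5:115348982-115349101 on the minus strand).
Cox7a1: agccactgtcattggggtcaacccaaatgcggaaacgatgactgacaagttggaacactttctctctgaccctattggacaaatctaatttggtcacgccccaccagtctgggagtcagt
Cox7a2: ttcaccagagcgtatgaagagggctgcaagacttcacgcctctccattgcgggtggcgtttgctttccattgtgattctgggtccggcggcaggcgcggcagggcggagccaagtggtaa
Cox8a: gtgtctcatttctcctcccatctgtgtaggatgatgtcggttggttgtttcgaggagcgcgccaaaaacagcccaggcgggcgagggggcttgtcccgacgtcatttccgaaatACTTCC
Cox8b: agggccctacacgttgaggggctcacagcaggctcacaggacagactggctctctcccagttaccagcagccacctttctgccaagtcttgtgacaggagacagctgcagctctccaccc
Cox6a1: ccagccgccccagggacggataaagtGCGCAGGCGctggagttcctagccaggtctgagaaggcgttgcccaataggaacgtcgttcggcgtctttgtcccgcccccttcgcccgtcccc
The capitals mark an ETS core cut by the edge of the window in Cox8a and the NRF1 core in Cox6a1. The restricted isoforms Cox7a1 and Cox8b, whose values are given next, held none of the 4 cores, and neither did Cox7a2.

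Isoforms of complex IV showed the sharpest tissue differences. Their shares within a group of paralogs are ratios within a library and do not depend on scaling. Cox4i2, the lung form of subunit 4 (chr2:152754173-152765037), was at 97.1 and 122 FPKM in lung, 0.592 and 0.806 in kidney, 1.63 and 0.784 in small intestine, and listed at 0 and at 0.369 in liver. Lung was thus apart from all other libraries, with a log2 difference of 6.08 (SE 0.21). It made up 38.2% and 44.6% of the Cox4i1 and Cox4i2 values in lung and at most 0.397% in any other library. The common form Cox4i1 was at 157 and 151 FPKM in lung and 130 to 408 elsewhere. In liver Cox4i2 had a log2 difference of -2.66, against a mean that includes the high lung values.

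Ndufa4l2, a paralog of the complex IV subunit Ndufa4 known from hypoxia and from pericytes, was at 23.3 and 22.05 FPKM in lung and between 0.299 and 1.17 in the other libraries. Its log2 difference in lung was 3.79 (SE 0.22, limma adjusted p = 3.53e-06). It took 20.1% and 18.8% of the pair in lung and at most 0.545% elsewhere, while Ndufa4 itself was called lower in lung, at 92.4 and 95.0 FPKM against 146 to 357. Of 9 pericyte and vascular smooth muscle markers 5 were called higher and 1 lower in lung on either scale. In small intestine, where Cox4i2 and Ndufa4l2 were low, 3 were called higher and 1 lower. Of all genes, 40.7% were called higher and 8.26% lower in lung as deposited, and 14.6% and 16.0% after scaling. In small intestine 13.7% of all genes were called higher and 11.3% lower as deposited. The summed FPKM of these 9 markers was 217 and 232 in lung, 205 and 165 in small intestine, 33.5 and 25.8 in kidney, and 12 and 11.6 in liver. Most of the sum in lung and small intestine was Acta2, a general smooth muscle gene whose values are given below. The sum therefore does not show the level of the pericyte genes. The part of these cells in the Cox4i2 and Ndufa4l2 results was not tested.

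Of the forms of heart and skeletal muscle, Cox6a2 and Cox8b were also found in lung, while Cox7a1, described below, was at 3.83 and 4.96 FPKM there and not called. Cox6a2 (chr7:128205435-128206387), the muscle form of subunit 6A, was at 25.0 and 25.3 FPKM in lung, 0.891 and 1.10 in kidney, 0.314 and 0.519 in small intestine, and listed at 0 in both liver libraries. The log2 difference in lung was 4.21 (SE 0.14), and its share of the Cox6a1 and Cox6a2 values was 12.8% and 10.5% in lung and at most 0.1796% elsewhere. Cox8b, the muscle form of subunit 8, was at 5.97 and 8.72 FPKM in lung and at most 0.297 elsewhere, which was 2.51% and 3.19% of its group. Markers of cardiac muscle moved with them. Of 11 such markers 7 passed the filter and all 7 were called higher in lung, where their sum was 261 and 268 FPKM against 0.439 to 9.45 in the other libraries, and none of the 11 was at 0 in lung. Skeletal muscle markers summed to 49.4 and 8.95 FPKM in lung, and 4 of 5 tested were called higher as deposited and 2 after scaling, against 40.7% and 14.6% of all genes. Of the cardiac markers 6 were called higher after scaling. The part of either muscle in the Cox6a2 and Cox8b results was not tested.

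Cox6b2, the testis form of subunit 6B, was at 9.98 and 10.4 FPKM in lung, 1.77 and 0.886 in kidney, 2.60 and 4.30 in small intestine and listed at 0 in liver, with a log2 difference of 2.38 in lung. It reached 8.79% and 8.43% of the Cox6b1 and Cox6b2 values in lung. Markers of sperm and testis summed to 2.33 and 3.11 FPKM in lung and 0.231 to 1.21 FPKM elsewhere. The 1 of 4 that passed the filter was called higher in lung as deposited and not after scaling, 2 of 4 were at 0 in both lung libraries, and their part in the Cox6b2 result was not tested. The other testis forms were at or near 0. Cox8c was listed at 0 in all 8 libraries, and Cox7b2 was above 0 in only 2 libraries, at 0.594 in lung and 0.394 in small intestine, resting on 4 and 2 reads.

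Cox7a1, the heart and skeletal muscle form of subunit 7A (chr7:30184144-30186078), was the isoform of the small intestine. It was at 57.3 and 45.1 FPKM there, 4.36 and 3.35 in kidney, 3.83 and 4.96 in lung, and 0.408 and 0.905 in liver. The small intestine libraries were apart from all others, with a log2 difference of 3.89 (SE 0.19, limma adjusted p = 2.66e-06), and the liver libraries were below all others, at -2.75. Its share of the 3 genes of the group was 12.5% and 13.4% in small intestine and 0.238% to 2.07% elsewhere. The cardiac markers summed to 8.72 and 9.45 FPKM in small intestine, below lung but above the 0.439 to 1.76 of kidney and liver, with 2 of 11 at 0 in both libraries. The skeletal muscle markers summed to 11.2 and 11.4 FPKM, within the range of the lung libraries and above the 0.489 to 0.714 of kidney and liver, with 3 of 8 at 0. Smooth muscle was well seen, with Acta2 at 139 and 110 FPKM, against 149 and 152 in lung, and Myh11, the smooth muscle myosin, at 31.7 and 25.9 FPKM, against 15.8 and 16.4 in lung. The part of these muscle markers in the Cox7a1 result was not tested.

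Shares of more widely expressed paralogs differed too. Cox7a2l made up 60.9% and 59.6% of the subunit 7A group in lung and 24.6% to 38.9% elsewhere, where Cox7a2 was the main form. The log2 difference of Cox7a2l itself in lung was 0.70 as deposited and -0.47 after scaling and was not called on either scale, while Cox7a2 was at -0.95 and -2.12. Of the 3 genes for the identical mature subunit c of ATP synthase, Atp5g2 held 44.1% and 44.7% in lung and 14.8% to 21.8% elsewhere, and Atp5g3 held 49.0% and 47.4% in lung and 70.7% to 77.9% elsewhere. Atp5g1 stayed between 6.92% and 9.62% in all 8 libraries. Atp5g2 shared 40.2% of its stretches of 31 bases with other genes, so its values are uncertain.

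**Figure D4:**
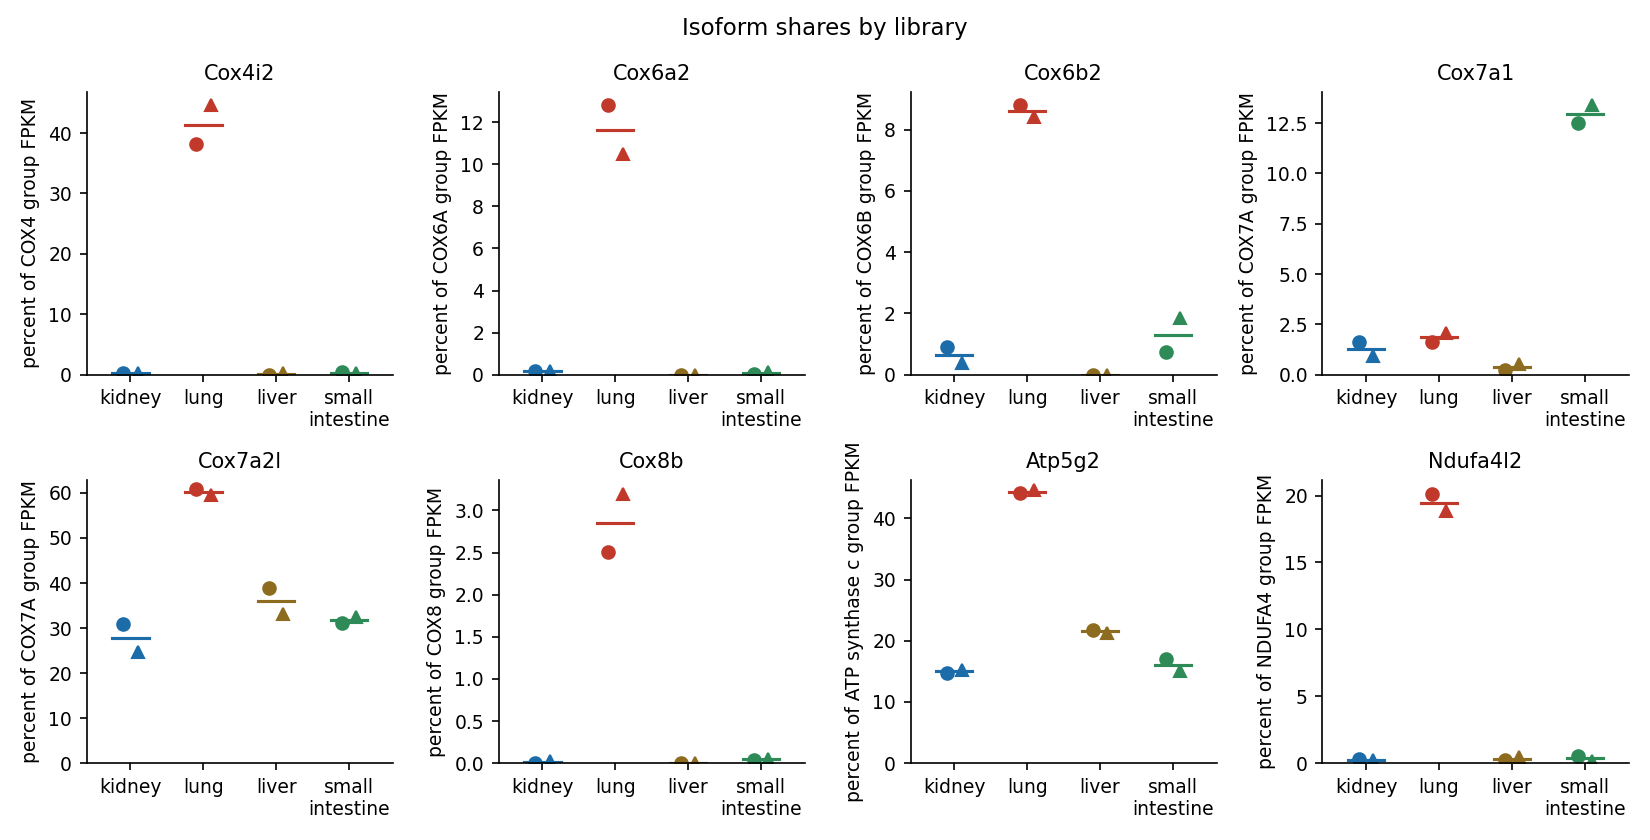
Share of each isoform in the summed FPKM of its group of paralogs (vertical axis, percent, each plot with its own scale) for each library (circle, replicate 1; triangle, replicate 2) with the tissue mean as a line. Cox4i2, Cox6a2, Cox6b2, Cox8b, Ndufa4l2, Cox7a2l and Atp5g2 are highest in lung, Cox4i2 at 38.2% and 44.6%, and Cox7a1 in small intestine, at 12.5% and 13.4%.

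Within the mitochondrial members the shares of single genes also differed by tissue. mt-Co1, the catalytic core of complex IV, had the highest value in every library, with 22.2% to 28.8% of the mitochondrial sum. mt-Atp8 had the lowest, with 0.110% to 0.199%. It has 204 bases and overlaps mt-Atp6 on the same strand (chrM:7766-7969 and chrM:7927-8607). How reads on both genes were counted is not stated, so the low value of mt-Atp8 is not a measure of its transcript. mt-Cytb, the membrane core of complex III, was nearly constant at 7.73% to 8.49%. One difference was between the neighbouring genes mt-Nd1 and mt-Nd2, both subunits of complex I and without a copy on chromosome 1. mt-Nd2 shared 13.5% of its stretches of 31 bases with other genes, and mt-Nd1 none. mt-Nd1 (chrM:2751-3707) was at 17494 and 20735 FPKM in kidney, 8205 and 8771 in small intestine, 6181 and 5340 in liver, and 3646 and 3369 in lung. Its kidney log2 difference of 1.78 (SE 0.15, limma adjusted p = 5.71e-05) was the largest of any member in kidney. mt-Nd2 was at 13212 and 17991 FPKM in kidney but only 5166 and 5873 in small intestine, below the 10207 and 9681 of liver. The ratio of mt-Nd1 to mt-Nd2 was 1.59 and 1.49 in small intestine, 1.32 and 1.15 in kidney, 0.775 and 0.857 in lung, and 0.606 and 0.552 in liver, with no overlap between tissues.

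mt-Nd3 went the other way. It made up 1.60% and 1.70% of the mitochondrial sum in lung, 1.30% and 0.954% in small intestine, 1.01% and 0.946% in liver, and 0.450% and 0.556% in kidney, and was 1 of 2 mitochondrial members not called in kidney, with a log2 difference of -0.14 as deposited and 0.15 after scaling. As its reads also fit Gm28438, this share is a value of both. mt-Nd6, the only member on the light strand, was at 2.87% and 2.75% in lung, 2.11% and 1.16% in kidney, 2.14% and 1.81% in small intestine, and 0.799% and 1.05% in liver, and it was the 1 mitochondrial member called lower in liver as deposited, at -1.17, which became -0.14 after scaling. Whether strand was used in counting is not stated, so reads from mt-Nd6 and from the transcript opposite it cannot be told apart. mt-Nd5 differed widely between the mice of a tissue, at 2.36% and 1.23% in kidney and 0.975% and 1.58% in small intestine. At 5167 and 3415 FPKM in kidney it was above the 975.5 to 2569 of the other libraries, with a log2 difference of 1.40 (SE 0.24, limma adjusted p = 0.00197).

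**Figure D5:**
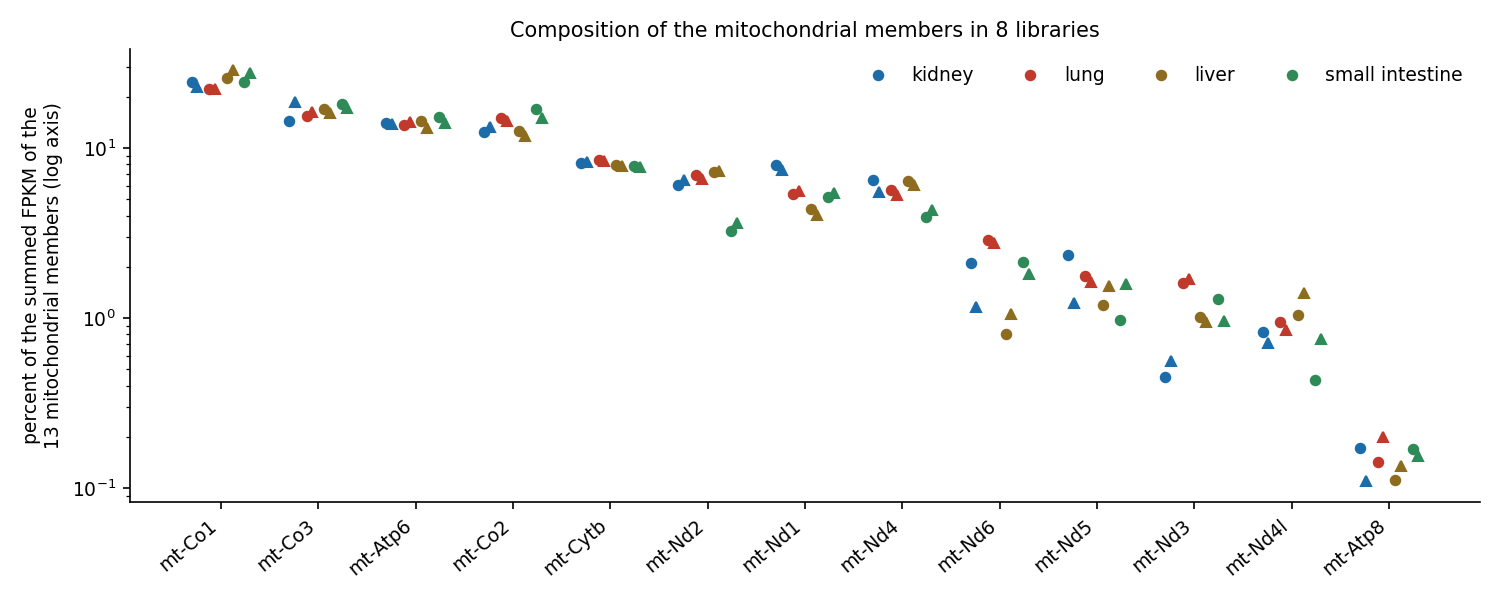
Share of each mitochondrial member in the summed FPKM of all 13 (vertical axis, percent, log axis) for each library (circle, replicate 1; triangle, replicate 2), ordered from the highest to the lowest mean. mt-Nd2 is lowest in small intestine, at 3.25% and 3.62%, and mt-Nd3 lowest in kidney, at 0.450% and 0.556%.

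Levels between nuclear members were compared only per kilobase of annotated exon. Over all 8 libraries the highest means were those of Cox8a (453 FPKM), Atp5b (392.5), Sdhd (199), Ndufa1 (188) and Uqcrfs1 (180) in complexes IV, V, II, I and III. The lowest of each complex above 0, in the order IV, I, V, II and III, were Cox7b2 (0.124), Ndufb2 (1.29), Atp5s (4.45), Sdhc (60.8) and Uqcrq (78.4). Ndufb2, an accessory subunit of complex I, has 5628 bases of annotated exon, by which its reads are divided, against 419 for Ndufa1. Of the pseudogene rows, Atp5l2-ps was at 52.8 to 140 FPKM and shared 90.4% of its stretches of 31 bases with other genes, mainly Atp5l, and Atp5c1-ps was above 0 only in kidney, at 0.154 and 0.0636. None of the 6 tested pseudogenes was called by limma in any tissue as deposited, and after scaling 1 was called higher in kidney and 4 lower in lung.

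Libraries of a tissue differed less than tissues, with exceptions. The median absolute log2 difference between the replicates over the 81 members was 0.36 in small intestine, 0.25 in kidney and 0.12 in both lung and liver, against 0.178, 0.296, 0.1498 and 0.141 over all genes tested. In small intestine replicate 1 was higher than replicate 2 in 79 of 81 nuclear members, by a median of 0.35, and in 54.9% of all genes, by a median of 0.03. In kidney replicate 1 was higher in 16 of 81 members, with a median difference of -0.21, but in 72.9% of all genes, with one of 0.21, so the members went against the other genes of these libraries. The proximal tubule markers summed to 2166 and 1938 FPKM in kidney, and those of the thick ascending limb to 892 and 609.5. The distal convoluted tubule markers were at 91.6 and 25.8 FPKM there and the erythroid markers at 867 and 2409. The part of these cells in the kidney difference was not tested. In small intestine the enterocyte markers summed to 5837 and 7607 FPKM and pancreatic acinar markers to 2441 and 1102 FPKM. The part of these markers in the difference between the small intestine libraries was not tested. Without replicate 1 of the small intestine 7 nuclear members were called higher there, and without replicate 2, 24 were. In kidney, 10 nuclear and 6 mitochondrial members were called higher without replicate 2.

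Ndufc2, a small subunit of complex I, was the member that varied most between replicates. It was at 86.0 and 28.3 FPKM in kidney and 19.7 and 94.3 in lung, resting on 1391, 369, 145 and 884 reads, and at 112 and 81.6 in small intestine and 8.97 and 12.5 in liver. In kidney and lung it was the only member whose replicates differed by more than 1 on the log2 scale, in opposite directions. Its liver value was called lower as deposited (log2 difference -2.37, limma adjusted p = 0.00758) but not after scaling (-1.41, limma adjusted p = 0.0518), and its small intestine value was called higher with a limma adjusted p of 0.0433.

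Genes that serve the same process were then counted by list, to be read against the shares of all genes called as deposited: 8.65% higher in kidney, 40.7% higher and 8.26% lower in lung, 32.7% lower in liver and 13.7% higher in small intestine. Of 40 tested assembly factors, which build the complexes but are not part of them, 5 were called higher in kidney, none in either direction in lung, 4 lower in liver and 2 higher in small intestine. After scaling 12 were called higher in kidney, 18 lower in lung, 3 higher in liver, and 2 higher and 1 lower in small intestine, where 11.5%, 16.0%, 12.3%, 13% and 11.6% of all genes were. Sco1, a copper chaperone for complex IV, was at 7.29 and 9.02 FPKM in small intestine against 2.15 to 2.58 elsewhere, a log2 difference of 1.48. Cox14, another complex IV factor, was at 25.4 and 30.4 FPKM in liver and 71.8 to 117 elsewhere, a log2 difference of -1.59 that was -0.59 and not called after scaling. Of 12 citrate cycle enzymes 6 were called higher in kidney, 6 lower in lung, 6 lower in liver and 5 higher in small intestine, and after scaling 9 were called higher in kidney, all 12 lower in lung, 2 higher and 1 lower in liver, and 5 higher in small intestine. The malate dehydrogenase Mdh2 was at 366 and 299.8 FPKM in small intestine against 34.6 to 98.9 elsewhere, a log2 difference of 2.73. The citrate synthase Cs was at 93.6 and 121 FPKM there against 13.4 to 35.8 elsewhere, a log2 difference of 2.35. Of 10 genes of mitochondrial mass, such as the outer membrane channels, 4 were called higher in kidney, 1 lower in lung, 4 lower in liver and 2 higher in small intestine. The channel Vdac2 was at 10.1 and 9.51 FPKM in liver and 31.2 to 84.5 elsewhere, with a log2 difference of -2.07, and the import receptor Tomm22 at 15.4 and 15.5 FPKM in liver and 37.4 to 69.97 elsewhere, with one of -1.60. After scaling 7 of the list were called higher in kidney, 8 lower in lung, 1 higher and 1 lower in liver, and 1 higher in small intestine. Vdac2 was still called lower in liver (-1.11) and Tomm22 was not (-0.62).

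Carriers that feed or drain the chain held the single genes with the widest differences of these lists. Of 10 tested, 5 were called higher in kidney, 5 lower and 1 higher in lung, 5 lower in liver and 5 higher in small intestine. After scaling 9 were called higher in kidney, 8 lower and 1 higher in lung, 3 higher and 2 lower in liver, and 5 higher and 1 lower in small intestine. Slc25a4, the muscle form of the adenine nucleotide carrier, was at 143 and 168 FPKM in kidney, 130 and 125 in lung, 21.4 and 18.7 in small intestine and 1.95 and 3.25 in liver, and its log2 difference in liver was -4.40. The common form Slc25a5 was at 898 and 950 FPKM in small intestine, 674 and 757 in kidney, 241 and 210 in liver and 151 and 151 in lung. Atpif1, the inhibitor of ATP synthase, was at 90.9 and 71.8 FPKM in small intestine, 31.7 and 39.5 in kidney, 23.1 and 23.0 in lung, and 1.74 and 1.88 in liver, where its log2 difference was -3.88. Both Slc25a4 and Atpif1 remained called lower in liver after scaling, at -3.57 and -3.10.

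Of 17 tested regulators of mitochondrial transcription and biogenesis, those called as deposited were 1 higher in kidney, 2 higher and 2 lower in lung, 1 lower in liver and 2 higher in small intestine. After scaling they were 3 higher in kidney, 8 lower in lung, 2 higher and 1 lower in liver, and 2 higher in small intestine. Esrra, the estrogen-related receptor alpha, was at 39.2 and 46.9 FPKM in small intestine, 30.0 and 14.2 in kidney, 5.32 and 6.97 in lung and 3.22 and 4.81 in liver, and Ppargc1a, its coactivator, at 6.95 and 11.5, 15.9 and 5.39, 1.40 and 0.891, and 2.88 and 1.40 in the same order. Both were called higher in small intestine and lower in lung on either scale. As deposited, Ppargc1a was also the 1 regulator called higher in kidney and Esrra the 1 called lower in liver, and the kidney libraries lay far apart for each.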

How the data were processed

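Bulk RNA-seq of 8 libraries was analysed, with groups taken from the sample labels. Per the study's methods the authors selected reads by index with bbduk, mapped them with STAR 2.5.3a to the Ensembl release 75 mouse genome (GRCm38) and deposited FPKM values from the DESeq2 function fpkm. The counter, its use of strand and its handling of reads with several places are not given in the sources used here. FPKM are not counts, and a few abundant transcripts lower all other values of a library. Whole reads were recovered from low values with exon lengths of GENCODE M21 (94.5% to 96.1% whole within 0.02 reads), which gave the depth. No column was left without a sample.

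Values were tested as log2(FPKM + 1), which understates differences of low genes, with limma 3.58.1 (eBayes with a trend) in R 4.3.3 and Benjamini-Hochberg adjustment over 16328 genes. The limma step was also tested on simulated data. Python 3.11.15 served for descriptions. With 2 mice per tissue, p-values rest on a spread shared by all genes and tissues. Shared sequence was measured as stretches of 31 bases. The members and lists were chosen with earlier results of these data known. Named genes were all mitochondrial members, isoforms, listed main subunits, the highest and lowest nuclear member of each complex, members at 0, and in each tissue up to 3 called members of largest and smallest log2 difference whose libraries both lay outside the other 6. Other members, such as Uqcrq, Uqcr11, Uqcrb and Ndufc2, and the genes of related lists were chosen once their values had been seen. One member is not reported by name here.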

Additional observations from a re-analysis of the deposited data

How the results depend on the processing

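Scaling between libraries decided most counts. Under median-of-ratios scaling, nuclear members called higher were 39 in kidney and 4 in liver, and called lower 1 in kidney, 70 in lung and 4 in liver, with 4 mitochondrial members higher and 0 lower in liver. With mitochondrial rows and copies left out, 59 nuclear members were higher in kidney, and 1, 42 and 19 were lower in kidney, lung and liver. Quantile normalization gave 43 nuclear members higher in kidney and 5 in small intestine, 1, 49 and 6 lower in kidney, lung and liver, and mitochondrial counts of 6 higher in kidney, 3 lower in lung, 2 lower in liver and 1 higher in small intestine. Rescaling to the same sum gave 5 nuclear members higher in kidney and 11 lower in lung, and mitochondrial counts of 4 higher in kidney and 6 lower in lung. By adjusted p alone, 58, 1 and 56 nuclear members were higher in kidney, liver and small intestine, 6, 57 and 64 were lower in kidney, lung and liver, and mitochondrial counts were 2 higher and 3 lower in liver and 4 higher and 1 lower in small intestine. The cause of these shifts was not tested beyond the scaling itself.

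Leaving out 1 library at a time, nuclear members called higher ranged from 10 to 24 in kidney and 7 to 24 in small intestine, those called lower in kidney from 1 to 3, and mitochondrial members higher in kidney from 6 to 11. The count of 1 was without lung replicate 1. The other counts stayed within 1.5 times their value.

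The mitochondrial to nuclear ratio of a tissue over the mean of the other tissues was 1.47 in liver, 1.24 in kidney, 0.749 in small intestine and 0.653 in lung. Ratios of medians gave 1.70, 1.52, 0.530 and 0.538, and members without a copy on chromosome 1 gave 1.44 in kidney and 1.34 in liver. In complex I alone, ratios of medians reversed lung (1.05) and liver (0.916). Leaving aside Cox4i2 and Cox6a2, 11 of 12 named differences kept their call under all alternatives run. Ndufc2 in liver lost it under median-of-ratios scaling (-1.41), quantile normalization (-1.74) and without liver replicate 1 (-2.16).

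A replicate block gave 14 nuclear members higher in small intestine in place of 15, by the loss of Ndufc2, and changed no other call of a member. Deviations of same-numbered libraries correlated between -0.217 and 0.053, and whether a number stands for a mouse is not stated. With limma-voom on recovered reads (16186 genes tested) the counts of members stayed within 1.5 times those reported.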
